A study of Mus musculus with 5 samples.

Results

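The genes described here are H2-Q10 and 9 genes of the major histocompatibility complex (MHC) class I pathway, namely H2-T23, B2m, Tap1, Tap2, Tapbp, Psmb8, Psmb9, Psmb10 and Nlrc5. They were measured in epithelial tumour cells of the mouse prostate on single-channel Affymetrix arrays. A probe set, the group of short probes that reports 1 transcript, was taken where its only gene symbol in the platform annotation was one of these 10 genes. This gave 15 of the 45037 probe sets in the table, for 9 of the 10 genes and of 18193 genes in all. H2-T23 had no probe set of its own, because both probe sets that list it also list a second gene, and it is not analysed here. H2-Q10 was chosen from the differences between genotypes on these same arrays, so its difference is given as a description with no test. The other genes were chosen for their roles in the pathway, with earlier results of these arrays known, and are described in the same way.

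The 5 arrays are taken to come from 5 mice on a C57BL/6 background, 2 called nTKO and 3 called nDKO. In nTKO mice a driver from the Probasin promoter, which is active in prostate epithelium, acts on floxed alleles that include Smad4 and Pygo2. In nDKO mice the same driver acts on the same alleles other than Pygo2, so deletion of Smad4 is shared by both genotypes by design. The comparison asks which transcripts differ when Pygo2, a PHD-finger co-activator of beta-catenin, is deleted as well. The nTKO mice were 31.43 and 16 weeks old (nTKO 1 and nTKO 2), and the nDKO mice 15.86, 10.71 and 10.71 weeks (nDKO 1, nDKO 2 and nDKO 3), so that both nTKO mice were older than every nDKO mouse. Tumours were dissociated and the cells collected on EpCAM beads, on ice.

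MHC class I molecules carry peptides from inside the cell to its surface, where CD8 T cells and natural killer cells read them. The peptides are cut by the proteasome, whose catalytic subunits are exchanged under interferon for Psmb8, Psmb9 and Psmb10 to form the immunoproteasome. The transporter Tap1-Tap2 pumps them into the endoplasmic reticulum, tapasin (Tapbp) holds the empty class I molecule at the transporter, and B2m is the light chain of every class I molecule. Nlrc5 is a transactivator of MHC class I genes. H2-Q10 is a class I-like heavy chain of the mouse that is secreted rather than held in the membrane, and it is best known from liver.

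The start sites of the heavy chain genes show how close H2-Q10 lies to the classical class I genes in sequence and where it differs. The windows below hold 250 bases before and 50 bases after the start of transcription, from RefSeq on GRCm38.p6, on the strand of the gene. They lie at chr17:35469839-35470138 (plus strand) for H2-Q10 and at chr17:35262844-35263143 (plus strand) for H2-D1, a classical heavy chain. Capitals mark an interferon response element, searched as GAANNGAAA on both strands, and a kappaB element, searched as GGGATTCCC on both strands.

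H2-Q10: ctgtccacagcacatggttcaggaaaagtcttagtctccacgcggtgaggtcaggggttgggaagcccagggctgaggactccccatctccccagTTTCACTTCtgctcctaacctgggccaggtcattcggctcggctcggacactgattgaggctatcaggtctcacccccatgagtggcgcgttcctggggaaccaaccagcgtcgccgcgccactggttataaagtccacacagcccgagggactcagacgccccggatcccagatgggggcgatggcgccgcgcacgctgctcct

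H2-D1: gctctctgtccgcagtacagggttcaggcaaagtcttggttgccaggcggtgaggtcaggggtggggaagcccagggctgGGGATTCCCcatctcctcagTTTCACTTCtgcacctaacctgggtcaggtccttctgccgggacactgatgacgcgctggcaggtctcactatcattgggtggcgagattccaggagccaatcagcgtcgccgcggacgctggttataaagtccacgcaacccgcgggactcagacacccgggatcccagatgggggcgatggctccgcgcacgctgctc

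Both windows held the interferon response element, whose first base lay at position -155 from the start in H2-Q10 and at position -150 in H2-D1. These letters were found in 7.52% of the 32851 promoter windows of the table. The kappaB letters began at position -170 in H2-D1 and were also in the window of H2-K1, the other classical heavy chain, but they were not in that of H2-Q10. They were found in 0.353% of all windows. A match of letters is a description and does not show binding.

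The window of Tap1 is shown because Tap1 and Psmb9 are neighbours that start in opposite directions. Their windows shared 275 of 300 bases, and that of Tap1 lies at chr17:34187306-34187605 (plus strand). A CCAAT box, searched as CCAAT on both strands, is in capitals. It was found in 37.4% of all windows.

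Tap1: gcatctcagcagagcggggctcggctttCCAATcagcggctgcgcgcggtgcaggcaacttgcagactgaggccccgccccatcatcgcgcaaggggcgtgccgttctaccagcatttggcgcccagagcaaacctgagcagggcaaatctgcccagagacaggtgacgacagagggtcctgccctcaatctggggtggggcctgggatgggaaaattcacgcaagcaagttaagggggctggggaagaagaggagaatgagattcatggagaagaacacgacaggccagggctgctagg

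Promoter windows were found for 8 of the 10 genes. The window of Psmb8 held a GAS element, the site named for interferon gamma activation (searched as TTCNNNGAA on both strands, found in 8.3% of all windows). It was the 1 such match among the 8 windows. The kappaB letters were in none of the 8, and the letters GAANNGAAA were in that of H2-Q10 alone. Other spellings of the interferon response element were not searched, so their absence from the other windows is not shown.

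Values are the authors' log2 signals, so a difference of 1 is a doubling. Array medians lay between 4.94 and 4.98, and the highest value in the table was 14.08. Epithelial markers were bright on every array: Epcam, Cdh1, Krt8 and Krt18 lay between 12.20 and 13.55. Pygo2 measured 7.30 and 6.35 in nTKO cells, against 8.65, 8.62 and 8.72 in nDKO cells. Smad4, targeted in both genotypes, measured 9.76 and 10.37 in nTKO cells, against 9.63, 9.88 and 9.88 in nDKO cells. With no array of undeleted cells, its loss cannot be read from these values. The oldest mouse of each genotype stood apart, as the keratin Krt10 shows, with 13.04 in nTKO 1 and 13.03 in nDKO 1, against 6.90 in nTKO 2 and 6.93 and 6.71 in nDKO 2 and nDKO 3. Results that rest on these arrays are therefore also given without them. In a bulk sample, fewer cells that express a gene and less RNA per cell cannot be told apart.

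H2-Q10 was the 1 gene of the 9 whose groups did not overlap. Its single probe set measured 6.37 and 7.80 in nTKO cells, against 5.54, 5.84 and 5.92 in nDKO cells. Both nTKO arrays were above every nDKO array, and nTKO 2 stood far above nTKO 1. The means were 7.08 ± 1.01 (SD, n = 2) in nTKO cells and 5.77 ± 0.20 (SD, n = 3) in nDKO cells. The difference, nTKO minus nDKO, was 1.32 (SE 0.47), a 2.49-fold higher signal. Of all probe sets, 7.02% had both nTKO arrays above every nDKO array, and 5.17% had both below. Since H2-Q10 was chosen for this difference, nothing is read from that share.

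Most of the difference of H2-Q10 came from 1 mouse. The signal was 4.09-fold the nDKO mean in nTKO 2 and 1.52-fold in nTKO 1. Without nTKO 2 the difference was 0.60, and without nTKO 1 it was 2.03. Adding log2 age to the fit gave 2.37, and between the mice of like age, nTKO 2 minus nDKO 1, it was 2.26. Without both nTKO 1 and nDKO 1 it was 1.92. H2-Q10 is reported by a single probe set, so no second one could be set beside it.

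**Figure D1:**
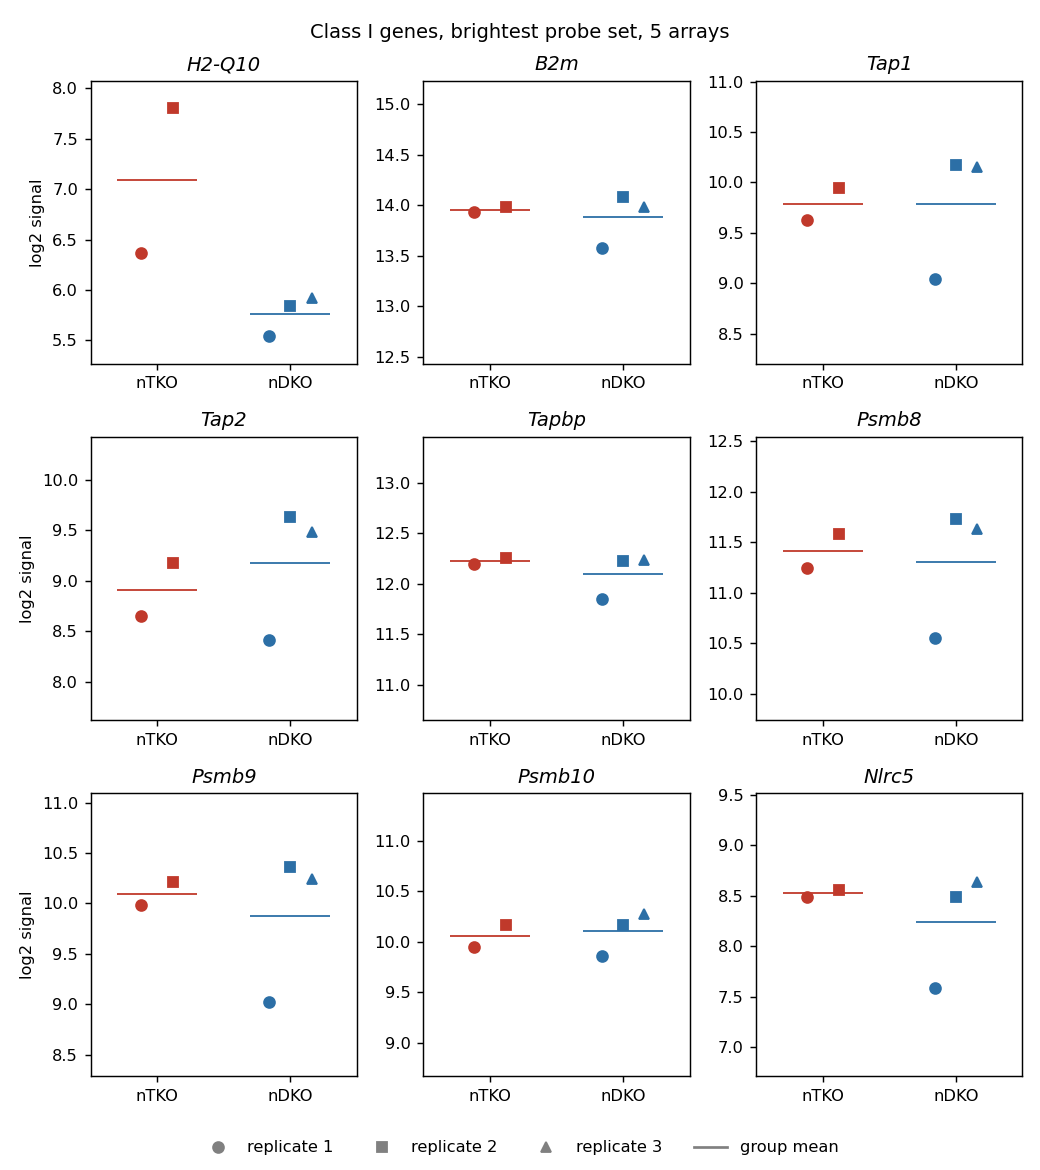
Log2 signal of the brightest probe set of each of the 9 measured genes on every array, with nTKO arrays in red and nDKO arrays in blue, symbols for the replicate number within its genotype and lines for group means. All panels span the same number of log2 units. H2-Q10 is the panel in which the groups do not overlap, with nTKO at 6.37 and 7.80 and nDKO between 5.54 and 5.92, and in the other 8 panels nDKO 1 is the lowest point.

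Hepatocyte markers were looked at because liver is the tissue best known for H2-Q10. Albumin (Alb) measured 3.39 and 3.25 in nTKO cells, against 3.13, 3.13 and 3.02 in nDKO cells, all below the array medians. The medians of the 6 hepatocyte markers were 4.48 and 4.60 on the nTKO arrays, against 4.40, 4.50 and 4.45 on the nDKO arrays. Of the 6, 4 lay below the median probe set. Ttr lay above it, with 6.42 and 6.42 in nTKO cells, against 5.90, 6.40 and 6.50 in nDKO cells. All 6 had a higher mean in nTKO cells, beside 61.0% of all genes. The groups did not overlap for 2, Alb and Ahsg, both higher in nTKO cells, beside 8.13% of all genes. The leukocyte marker Ptprc (CD45) measured 8.84 and 6.87 in nTKO cells, against 7.46, 6.87 and 8.33 in nDKO cells. It had the same value, its lowest, on nTKO 2, where H2-Q10 was highest, and on nDKO 2. Of the 17 leukocyte markers, Cd8a alone was highest on nTKO 2, at 5.74, against 5.56 on each nDKO array. The 17 leukocyte markers had medians of 6.76 and 6.02 on the nTKO arrays, against 5.94, 6.08 and 6.05 on the nDKO arrays. These medians hide S100a8, with 12.79 and 8.30 in nTKO cells, against 10.53, 9.66 and 10.37 in nDKO cells. Cd68 and Adgre1 were highest in nDKO 3 instead. The groups did not overlap for 2 markers higher (Nkg7 and Cd79a) and 1 lower (C1qa) in nTKO cells, beside 8.13% and 4.71% of all genes.

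B2m, the light chain, was near the top of the scale on every array. Its brighter probe set measured 13.93 and 13.98 in nTKO cells, against 13.58, 14.08 and 13.98 in nDKO cells. The groups overlapped, and nDKO 1 alone was low. The difference was 0.08 (SE 0.17), and the second probe set gave 0.06 (SE 0.18), with the same array lowest. The value in nDKO 2, 14.08, equalled the highest in the whole table.

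The transporter subunits overlapped between the genotypes. Tap1 measured 9.63 and 9.95 in nTKO cells, against 9.04, 10.17 and 10.15 in nDKO cells, a difference of 0.0033 (SE 0.42). Tap2 measured 8.65 and 9.17 in nTKO cells, against 8.41, 9.63 and 9.48 in nDKO cells, a difference of -0.26 (SE 0.45). Leaving out nDKO 1 gave differences of -0.37 for Tap1 and -0.645 for Tap2. In both genes nDKO 1 was lowest, nTKO 1 next, nTKO 2 in the middle and nDKO 2 and nDKO 3 highest. Neighbouring arrays in that order, such as nDKO 2 and nDKO 3, lay closer together than the spread of the nDKO group (SD 0.65 for Tap1 and 0.67 for Tap2). The other 3 probe sets of Tap1 were dim, between 2.66 and 4.22, below the median probe set level of 4.97.

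Tapasin gave 2 answers. The brighter probe set of Tapbp measured 12.19 and 12.25 in nTKO cells, against 11.85, 12.22 and 12.23 in nDKO cells, a difference of 0.12 (SE 0.15). The dimmer one measured 8.31 and 9.75 in nTKO cells, against 9.51, 10.34 and 10.21 in nDKO cells, a difference of -0.99 (SE 0.54). This was the largest difference among the 14 probe sets other than that of H2-Q10. It rested mainly on nTKO 1, and was -0.27 without that mouse and -1.71 without nTKO 2. Its sign turned when log2 age was added to the fit, which gave 0.27, and between the mice of like age, where it was 0.24. The groups overlapped in both probe sets.

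The immunoproteasome subunits overlapped as well. Psmb8, the inducible form of the chymotrypsin-like subunit, measured 11.24 and 11.58 in nTKO cells, against 10.55, 11.73 and 11.63 in nDKO cells, a difference of 0.11 (SE 0.43). Psmb9, the inducible caspase-like position, measured 9.98 and 10.21 in nTKO cells, against 9.02, 10.36 and 10.24 in nDKO cells, a difference of 0.22 (SE 0.48). Psmb10, the inducible trypsin-like subunit, measured 9.95 and 10.17 in nTKO cells, against 9.86, 10.17 and 10.28 in nDKO cells, a difference of -0.04 (SE 0.16). In all 3, the nDKO group spanned both nTKO values, because nDKO 1 lay below them and at least 1 other nDKO array above them. Leaving out nDKO 1 gave differences of -0.27 for Psmb8, -0.205 for Psmb9 and -0.165 for Psmb10. The second probe set of Psmb8 was dimmer, between 5.19 and 5.63, with a difference of 0.17 (SE 0.14).

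The transactivator Nlrc5 measured 8.49 and 8.56 in nTKO cells, against 7.59, 8.49 and 8.64 in nDKO cells. Its difference was 0.28 (SE 0.36), the largest among the brightest probe sets of the 8 genes other than H2-Q10. It came from nDKO 1, and without that mouse it was -0.04. Among the other 4 arrays, Nlrc5 varied by less than the nDKO standard deviation of 0.57.

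**Figure D2:**
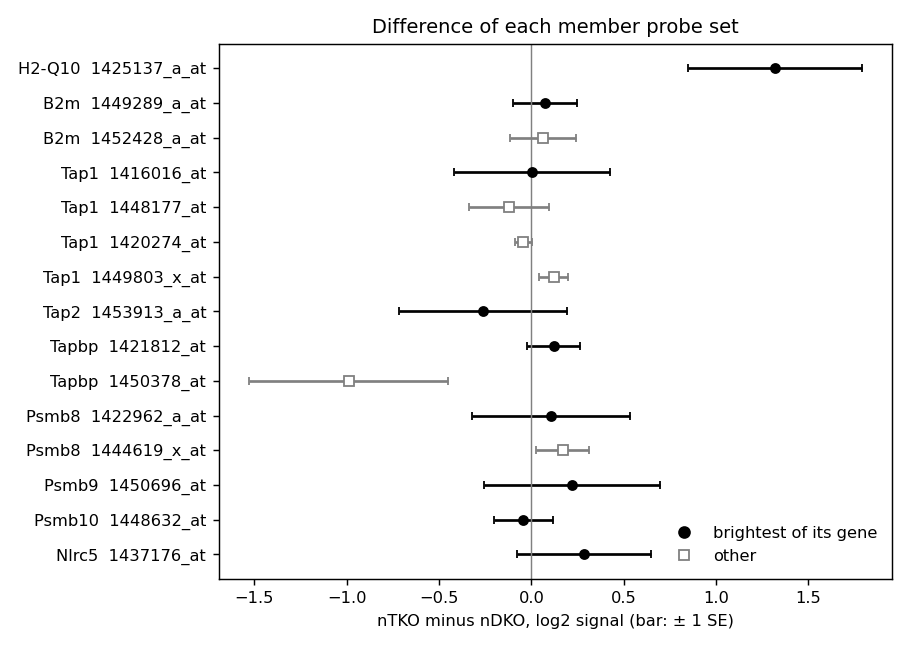
Difference nTKO minus nDKO in log2 signal for each of the 15 probe sets, with bars of 1 standard error from the fit over all probe sets. Filled circles are the brightest probe set of a gene and open squares the others. H2-Q10 lies at 1.32, the dimmer Tapbp probe set at -0.99 and the other 13 between -0.26 and 0.28.

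Across the table, the comparison of nTKO with nDKO gave 0 of 45037 probe sets a limma adjusted p under 0.05 in either direction (0.0% higher and 0.0% lower), so no probe set of these genes passed. The smallest adjusted p was 0.799, and 1710 probe sets had an unadjusted p under 0.05, 976 higher and 734 lower. Of the 8 genes other than H2-Q10, 6 had a higher and 2 a lower mean in nTKO cells, beside 61.0% of all genes with a higher mean. Their median difference was 0.09, beside 0.03 over all genes. The median was -0.19 without nDKO 1, where 0 of the 8 genes were higher and 8 lower, and 0.68 with log2 age as a covariate, where 8 were higher. It was 0.84 between the mice of like age.

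What the genes shared was their order over the arrays rather than a difference between genotypes. All 9 measured genes were lowest in nDKO 1, beside 30.6% of all genes. This count takes the brightest probe set of each gene and includes H2-Q10, which otherwise followed another order. By probe set, 13 of 15 were lowest in nDKO 1, beside 28.8% of all probe sets. The dimmer Tapbp probe set was lowest in nTKO 1 instead, and a dim one of Tap1 was highest in nDKO 1. For 7 of the 8 other genes nTKO 1 was next lowest, beside 5.73% of all genes, or 9.27% of the 4499 genes at least as bright as Nlrc5. In the remaining one, Nlrc5, nTKO 1 was tied with nDKO 2. Relative to the mean of each gene, the median of the 8 genes was -0.04 in nTKO 1 and 0.13 in nTKO 2, against -0.70 in nDKO 1, 0.28 in nDKO 2 and 0.28 in nDKO 3. The mean of the other 4 arrays was 2.26-fold that of nDKO 1 for Psmb9, 1.99-fold for Psmb8, 1.94-fold for Nlrc5 and 1.91-fold for Tap1. It was 1.77-fold for Tap2, 1.29-fold for Tapbp and 1.22-fold for Psmb10. No fold is given for B2m, which lay near the top of the scale. Since 1 mouse makes this pattern, it has no replicate and no test.

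**Figure D3:**
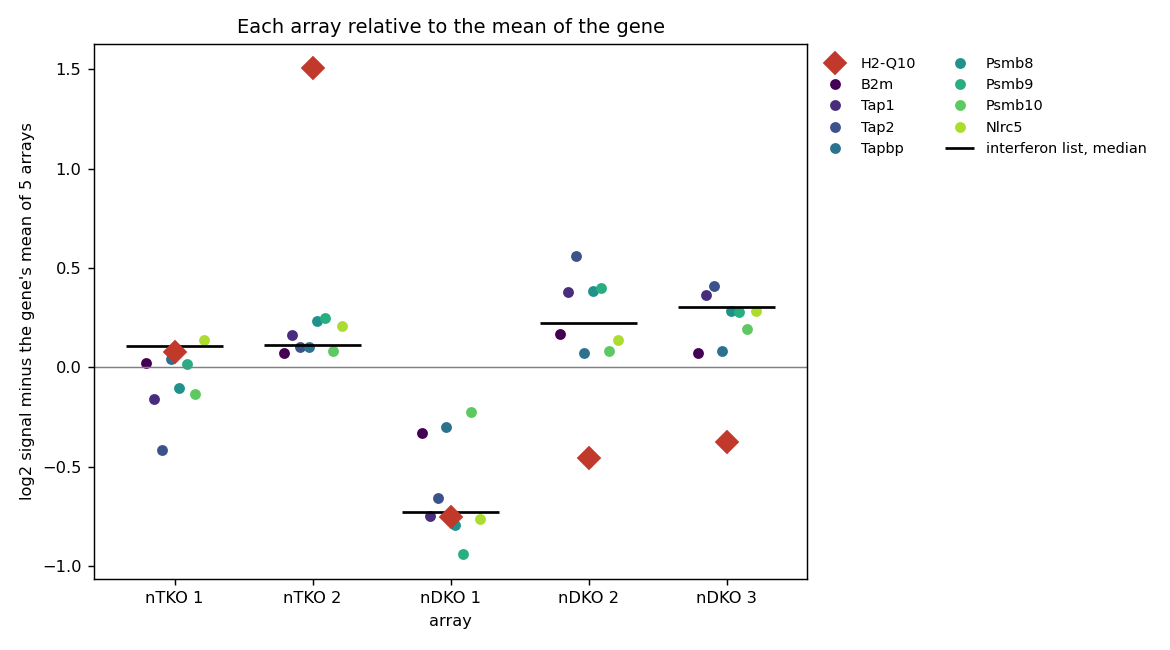
Log2 signal of each gene minus its mean over the 5 arrays, by array, with red diamonds for H2-Q10, circles for the 8 other genes and black bars for the median of 21 interferon-stimulated genes. In nDKO 1 all points lie below 0, and in nTKO 2 H2-Q10 stands apart from the other 8 genes.

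Among the constitutive subunits, Psmb5 and Psmb6 were not at their lowest in nDKO 1, whereas Psmb7 was. Psmb5, which Psmb8 replaces, measured 10.77 and 10.87 in nTKO cells, against 10.87, 10.92 and 10.86 in nDKO cells. Psmb6, which Psmb9 replaces, measured 10.79 and 10.86 in nTKO cells, against 10.84, 10.84 and 10.83 in nDKO cells. Psmb7, which Psmb10 replaces, measured 10.80 and 10.66 in nTKO cells, against 10.59, 10.67 and 10.65 in nDKO cells. Of 17 measured genes of the proteasome and its PA28 activator, 4 were lowest in nDKO 1, beside 30.6% of all genes. The median difference of the 17 between genotypes was 0.02. The 4 were Psmb7, Psmb2, the assembly factor Pomp and the PA28 subunit Psme1, another gene known to be induced by interferon gamma. Psme1 measured 11.85 and 11.85 in nTKO cells, against 11.58, 11.91 and 11.85 in nDKO cells. The groups did not overlap for 4 of the 17, beside 8.13% of all genes higher and 4.71% lower. Pomp, Psma2 and Psmb3 were higher and Psma7 was lower in nTKO cells, with differences of 0.12, 0.11, 0.18 and -0.18. Of these, Psma2, Psmb3 and Psma7 are named after their values were seen.

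**Figure D4:**
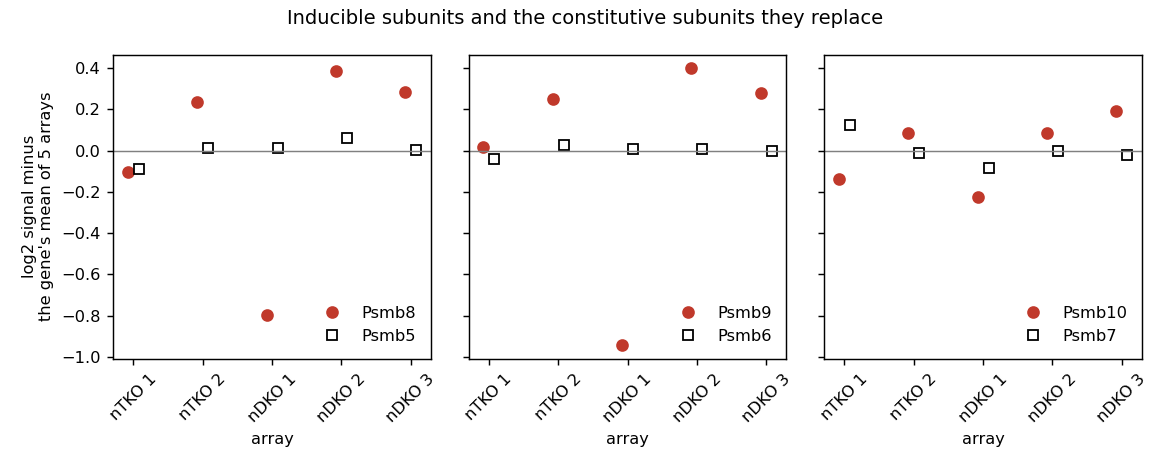
Log2 signal minus the mean of the gene over 5 arrays, for the inducible subunits (red circles) and the constitutive subunits they replace (open squares). Psmb8 and Psmb9 lie near -0.8 and -0.9 in nDKO 1, while Psmb5 and Psmb6 stay within 0.1 of their means on every array. Psmb10 lies closer to its mean in nDKO 1 than Psmb8 and Psmb9 do, and its constitutive partner Psmb7 is also lowest there.

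Peptide loading and trimming genes outside the list were counted together with other genes of the endoplasmic reticulum. The latter were Hspa5, Sec61a1, Sec61b, Derl1 and Lrmp. Of 10 measured, 5 were lowest in nDKO 1 (Calr, Erap1, Tapbpl, Hspa5 and Sec61a1), beside 30.6% of all genes. The 10 had a median difference between genotypes of 0.0067. The chaperones Calr and Canx had differences of -0.0033 and -0.0033. Pdia3 (ERp57), which sits in the loading complex with tapasin, measured 11.56 and 11.89 in nTKO cells, against 11.84, 11.99 and 11.96 in nDKO cells. The aminopeptidase Erap1, which trims peptides in the endoplasmic reticulum, measured 8.67 and 8.80 in nTKO cells, against 8.30, 8.55 and 8.69 in nDKO cells. The tapasin-related editor Tapbpl measured 8.40 and 8.69 in nTKO cells, against 8.21, 8.62 and 8.67 in nDKO cells. Erap1 and Tapbpl were lowest in nDKO 1, and the groups overlapped in each of these 3 genes.

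Of 23 class I heavy chains other than H2-Q10 and H2-T23, 9 had a probe set with a single symbol. The classical H2-K1 measured 13.95 and 14.01 in nTKO cells, against 13.52, 14.08 and 13.99 in nDKO cells, a difference of 0.12 (SE 0.20). H2-D1 measured 13.50 and 13.57 in nTKO cells, against 13.15, 13.65 and 13.59 in nDKO cells, a difference of 0.07 (SE 0.18). Their brightest probe sets carry the suffix x, which marks probes that may also bind related transcripts, and both lie near the top of the scale. Both were lowest in nDKO 1, as were 8 of the 9 heavy chains in all, beside 30.6% of all genes. The median difference of the 9 was 0.12, and 0 passed in either direction.

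The heavy chain not lowest in nDKO 1 was H2-M3, which presents formylated peptides of bacteria and mitochondria. It measured 8.09 and 8.11 in nTKO cells, against 7.71, 7.27 and 7.77 in nDKO cells. Its difference was 0.52 (SE 0.18), and by brightest probe set it was the 1 heavy chain of the 9 with both nTKO arrays above every nDKO array, beside 8.13% of all genes. A dimmer probe set of H2-D1 also had both nTKO arrays above, with 7.44 and 7.48 in nTKO cells, against 6.57, 7.34 and 7.40 in nDKO cells. The lowest array of H2-M3 was nDKO 2, whereas this H2-D1 probe set was lowest in nDKO 1. H2-Q2, a neighbour of H2-Q10 in the Qa region named here after its values were seen, was also highest in nTKO 2. It measured 7.40 and 8.17 in nTKO cells, against 6.51, 7.65 and 7.67 in nDKO cells, with overlapping groups. H2-Q5, of the same region, was highest in nDKO 2, with 7.17 and 7.50 in nTKO cells, against 6.32, 8.07 and 7.70 in nDKO cells.

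Regulators of the pathway overlapped between the genotypes. Irf1, the interferon-induced activator of class I genes, measured 10.12 and 10.16 in nTKO cells, against 9.81, 10.12 and 10.19 in nDKO cells. Stat2, part of the type I interferon complex, measured 8.18 and 8.78 in nTKO cells, against 7.83, 8.82 and 8.96 in nDKO cells, and its partner Irf9 9.82 and 10.01, against 9.60, 10.15 and 9.98. Rfx5, which binds class I promoters together with Nlrc5, measured 8.50 and 8.45 in nTKO cells, against 8.58, 8.40 and 8.34 in nDKO cells. The class II transactivator Ciita stayed at or below 4.42, under the median probe set level of 4.97. Irf1, Stat2 and Irf9 were lowest in nDKO 1, as were 9 of the 20 measured genes of the list in all, beside 30.6% of all genes. The median difference of the 20 was 0.02. Of these 20, 0 had groups that did not overlap, beside 8.13% of all genes higher and 4.71% lower.

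Interferon-stimulated genes had the same lowest array. Of 21 measured, 20 were lowest in nDKO 1, beside 30.6% of all genes, and 6 had nTKO 1 next. The exception was Ubd (FAT10), a ubiquitin-like modifier, which measured 8.11 and 11.05 in nTKO cells, against 8.74, 7.54 and 9.50 in nDKO cells. The GTPase Iigp1 measured 7.73 and 7.67 in nTKO cells, against 6.15, 7.84 and 8.24 in nDKO cells. The antiviral protein Ifit3 measured 11.32 and 11.54 in nTKO cells, against 10.04, 11.52 and 11.83 in nDKO cells. The GTPase Igtp measured 10.10 and 9.98 in nTKO cells, against 8.84, 10.10 and 10.28 in nDKO cells. The median difference of the 21 genes was 0.20, 0 passed and 0 had groups that did not overlap, beside the same 8.13% and 4.71% of all genes.

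Other markers moved with nDKO 1 too. The 5 squamous markers had medians of 9.62 and 5.55 on the nTKO arrays, against 11.57, 6.02 and 6.03 on the nDKO arrays, so nDKO 1 and nTKO 1 were high. The 4 seminal vesicle markers were all lowest in nDKO 1, beside 30.6% of all genes. Their medians were 12.77 and 12.85 on the nTKO arrays, against 9.995, 13.04 and 13.74 on the nDKO arrays. Epcam, Krt8 and Krt18 were also lowest in nDKO 1, by less, with Epcam at 13.24 and 13.41 in nTKO cells, against 12.94, 13.48 and 13.35 in nDKO cells. The 4 class II markers of antigen-presenting cells were lowest in nDKO 2 instead, with medians of 9.93 and 8.97 on the nTKO arrays, against 8.79, 8.69 and 10.05 on the nDKO arrays. Endothelial markers were dim, with medians of 3.985 and 3.75 on the nTKO arrays, against 3.695, 3.815 and 3.605 on the nDKO arrays. Fibroblast markers had medians of 5.13 and 5.05 on the nTKO arrays, against 4.94, 5.05 and 5.11 on the nDKO arrays. These medians hide Dcn, named after its values were seen, which was highest in nTKO 2. It measured 6.41 and 9.52 in nTKO cells, against 7.87, 9.39 and 9.03 in nDKO cells. Col1a1, Col1a2 and Col3a1 were highest in nTKO 1 instead. The part of these cells and states in the class I values was not tested.

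Genes with a pattern like that of H2-Q10 were ranked by Pearson's r over the 5 arrays, among 1302 genes that varied by at least 1 log2 unit. With so few arrays r is a description only, and 16 of the 1302 genes exceeded 0.95. The nearest was Greb1l (r = 0.999), which measured 6.13 and 7.40 in nTKO cells, against 5.49, 5.67 and 5.80 in nDKO cells. Sval1 (0.985), the gluconeogenic enzyme Fbp1 (0.979), Hacd1 (0.972), the phosphatase Ptprz1 (0.969) and Plcl2 (0.967) followed, and each was highest in nTKO 2. Between H2-Q10 and the 8 pathway genes r lay between 0.11 and 0.53.

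The same ranking against the mean of Tap1, Psmb8 and Psmb9 gave other genes. They were Tent5a (r = 0.996), the RNA-sensor relative Dhx58 (0.993), the G protein subunit Gna14 (0.991), the ISG15-conjugating enzyme Ube2l6 (0.991), the antiviral Mx2 (0.991) and the ubiquitin ligase Rnf213 (0.990). Dhx58 measured 9.12 and 9.31 in nTKO cells, against 8.22, 9.46 and 9.37 in nDKO cells. All 6 were lowest in nDKO 1. Among the 8 pathway genes themselves r lay between 0.73 and 0.99 (28 pairs, median 0.93).

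**Figure D5:**
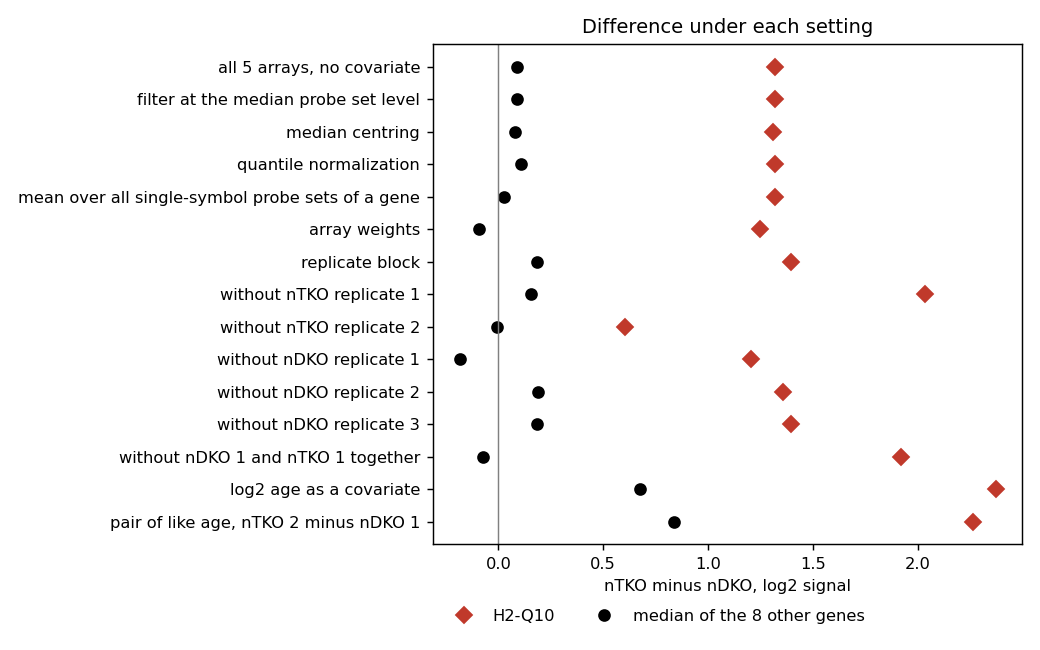
Difference nTKO minus nDKO in log2 signal of H2-Q10 (red diamonds) and median difference of the 8 other genes (black circles) under each setting. H2-Q10 lies between 0.60 and 2.37 in all of them, while the median of the others lies on both sides of 0, from -0.19 to 0.84.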

How the data were processed

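The authors deposited 1 log2 signal per probe set and array, for which the submitters' processing notes name the Transcriptome Analysis Console and RMA without a version. RMA removes background, gives all arrays the same distribution and summarises the probes, which hides a change common to most genes. Arrays have no read depth, and the number of arrays limits the precision. The 45037 probe sets had 1 gene symbol (34945), several (932) or none (9160) in the platform annotation. A gene was represented by its brightest single-symbol probe set over all 5 arrays, and lists are counted that way. Some items are not reported here. No value column was left unassigned.

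The deposited log2 values of all probe sets were fitted with limma 3.58.1 in R 4.3.3 (lmFit, eBayes with intensity trend, no covariate or filter, two-sided, Benjamini-Hochberg over the table, threshold 0.05), with 3 residual degrees of freedom and 1.18 from the prior, and tested on simulated data. Standard errors are from that fit. The labels number each array as a replicate tumour of its genotype, and each was taken as a separate mouse. Non-overlap means that both nTKO arrays lie above, or below, all nDKO arrays. The named genes were all probe sets of the members, genes marked in the lists whatever their values, the targeted genes, and the 6 genes most like each of 2 patterns (Pearson's r, range of at least 1 log2 unit, predicted genes left out). Alternatives were filtering at the median level, 2 further normalizations, other moderation, array weights, log2 age, the replicate number as a block, another summary per gene, and leaving out arrays. The members, lists and settings were chosen with earlier results of these data known.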

Additional observations from a re-analysis of the deposited data

How the results depend on the processing

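The count of probe sets with a limma adjusted p under 0.05 was 0 in the 15 other fits, with a smallest adjusted p of 0.0615 to 0.868. The difference of H2-Q10 stayed above 0 in all 14 alternatives and moved by more than its pooled standard deviation of 0.61 in 4 of them: 2.37 with log2 age as a covariate, 2.26 between the mice of like age, and 0.60 to 2.03 with 1 mouse left out (lowest without nTKO 2, highest without nTKO 1). The median difference of the 8 other genes was 0.68 with log2 age as a covariate and 0.835 between the mice of like age. It was below 0 in 4 of 14 alternatives, at -0.19 without nDKO 1, -0.01 without nTKO 2, -0.07 without both nDKO 1 and nTKO 1 and -0.09 with array weights. Single probe sets moved by more than their standard deviation in 31 of 192 values, 27 of them in the 2 settings for age. The cause was not tested.

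The replicate numbers are taken to mark separate mice, and the labels do not pair them. Deviations of same-numbered arrays from their group means had r = 0.38 for number 1 and 0.31 for number 2, across probe sets. With 2 nTKO arrays, their deviations are equal and opposite, so these values of r are not separate checks of pairing. With the replicate block the difference of H2-Q10 was 1.395, the median of the other genes 0.185 and the count of calls 0. With 2 nTKO arrays and both of these mice older than every nDKO mouse, a difference of the size seen between nDKO mice cannot be told from one between genotypes.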

Other observations

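Other class I-like genes, most of them partners of B2m, do not present peptides in the classical way. Of 6 measured, with Azgp1 among them, 2 were lowest in nDKO 1 (Hfe and Cd1d2), beside 30.6% of all genes. The lipid-presenting Cd1d1 measured 8.60 and 7.25 in nTKO cells, against 8.73, 7.78 and 7.78 in nDKO cells, and so was highest in nDKO 1, where the class I processing genes were lowest. The metabolite-presenting Mr1 measured 7.60 and 7.60 in nTKO cells, against 7.78, 7.60 and 7.51 in nDKO cells. The antibody receptor Fcgrt measured 7.08 and 7.29 in nTKO cells, against 7.53, 7.20 and 8.04 in nDKO cells. The iron regulator Hfe measured 7.85 and 7.81 in nTKO cells, against 7.49, 7.64 and 7.73 in nDKO cells, and was the 1 gene of the 6 with groups that did not overlap, beside 8.13% of all genes higher and 4.71% lower. Its difference was 0.21 (SE 0.09). Of the 6 genes, 0 passed over all probe sets with limma (smallest adjusted p 0.799). Of the 21 interferon-stimulated genes, Ubd had the widest range over the arrays, with a standard deviation of 2.08 in nTKO cells (n = 2) and 0.99 in nDKO cells (n = 3).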
